A study of Ovis aries with 8 samples.

Results

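Ion channels and a scaffold that holds them at the cell surface were examined in the lungs of fetal sheep given aldosterone, the adrenal hormone that acts through the mineralocorticoid receptor. Members were all non-control probes whose gene name or description in the scanner files marked a potassium, chloride or calcium channel, a TRP channel, a CLIC or FXYD protein, a ryanodine receptor, NEDD4, CFTR or NHERF1, leaving out the epithelial sodium channel and the sodium pump. Described here are 6 of the 854 genes that the array's probes name, on 12 of its 15008 probes, with 2 probes a gene: NHERF1 (listed under its older symbol SLC9A3R1), CFTR, CLCN2, CLCN5 (listed as CLC5), KCNK3 and TRPM7. No probe had a name or description for a CLIC or FXYD protein, a TRPC or TRPV channel, a voltage-gated calcium channel, a ryanodine receptor or NEDD4, so the calcium side rests on TRPM7 alone. Most probes of the array carry no gene name, and channels among those were not analysed here.

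The 8 lungs came from 4 sets of twin fetuses at about 130 days of gestation, where term is 147 days. In each set 1 fetus was infused with 0.2 mg of aldosterone over 48 hours, starting 5 days after surgery, and the other received vehicle, which gave 4 aldosterone and 4 control lungs. The RNA of each lung was labelled and hybridised to its own 1-colour array. The question is whether these channel genes respond to 48 hours of raised aldosterone in the late-gestation lung.

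Before birth the lung epithelium secretes liquid into the airspaces, with chloride leaving the cells through channels of the apical membrane while potassium channels help to keep the membrane voltage that drives it. Around birth the epithelium turns to absorbing sodium and liquid, and corticosteroids are among the signals that prepare this change. NHERF1 is a PDZ scaffold that ties CFTR and the sodium-hydrogen exchanger NHE3 to the actin cytoskeleton through ezrin.

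The probes are 60-base oligonucleotides, and for 5 of the 6 genes both probes read nearly the same stretch. The pairs of NHERF1 and TRPM7 are shown because their agreement or disagreement bears on the differences given further on. They are written 5′ to 3′ with the bases that both probes of a gene share in capitals.

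NHERF1, brighter probe: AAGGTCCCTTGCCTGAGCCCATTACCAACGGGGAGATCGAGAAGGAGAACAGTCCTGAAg
NHERF1, other probe: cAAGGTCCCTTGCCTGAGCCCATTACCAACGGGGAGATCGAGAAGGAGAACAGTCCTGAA
TRPM7, brighter probe: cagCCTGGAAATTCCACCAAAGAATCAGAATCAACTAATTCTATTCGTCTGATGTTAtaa
TRPM7, other probe: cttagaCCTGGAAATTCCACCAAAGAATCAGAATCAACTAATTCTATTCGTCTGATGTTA

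The probes of NHERF1, CLCN2, CLCN5 and KCNK3 share 59 of 60 bases, those of TRPM7 share 54, and those of CFTR share no run longer than 6. Close agreement within a pair is therefore a repeat reading of 1 site, while CFTR is read at separate sites. No probe of another gene name on the array shared a run of 20 bases with any of the 12. The scanner files list the position of these probes as unmapped.

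Aldosterone and control lungs were not told apart on any of these genes. Of the 6 genes, 5 were tested, each through a probe that stood well above background in 4 or more lungs; CLCN2 had none. In limma 0 of the 5 passed an adjusted p of 0.05, where 0% of all 12170 kept probes did, and 0 had an unadjusted p under 0.05, where 228 kept probes (1.87%) did. With the twin number as a block limma also called 0 of the 5, and 0 had an unadjusted p under 0.05 (4.43% of all kept probes). The mean was higher with aldosterone for 1 of the 5 genes and lower for 4, with a median log2 difference of -0.15 against 0.01 over all kept probes. The higher gene was CLCN5, whose probe was well above background in only 1 aldosterone lung. These counts take the brighter probe of each gene. Over the 9 kept probes of these genes 3 were higher and 6 lower, with a median of -0.09. The other NHERF1 probe, at 0.00, is counted among the higher. Of all 12170 kept probes 6270 were higher and 5900 lower. The median size of the difference was 0.15 for the 5 genes and 0.12 over all kept probes. For 0 of the 9 kept probes of these genes did the groups not overlap (1.31% of all kept probes). Levels are given as the log2 intensity less the array's 75th percentile, so that 0 is a spot brighter than 75% of the spots, and a log2 difference of 1 is a doubling. A whole lung holds many cell types, and fewer cells of a type and less RNA per cell cannot be told apart here.

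**Figure D1:**
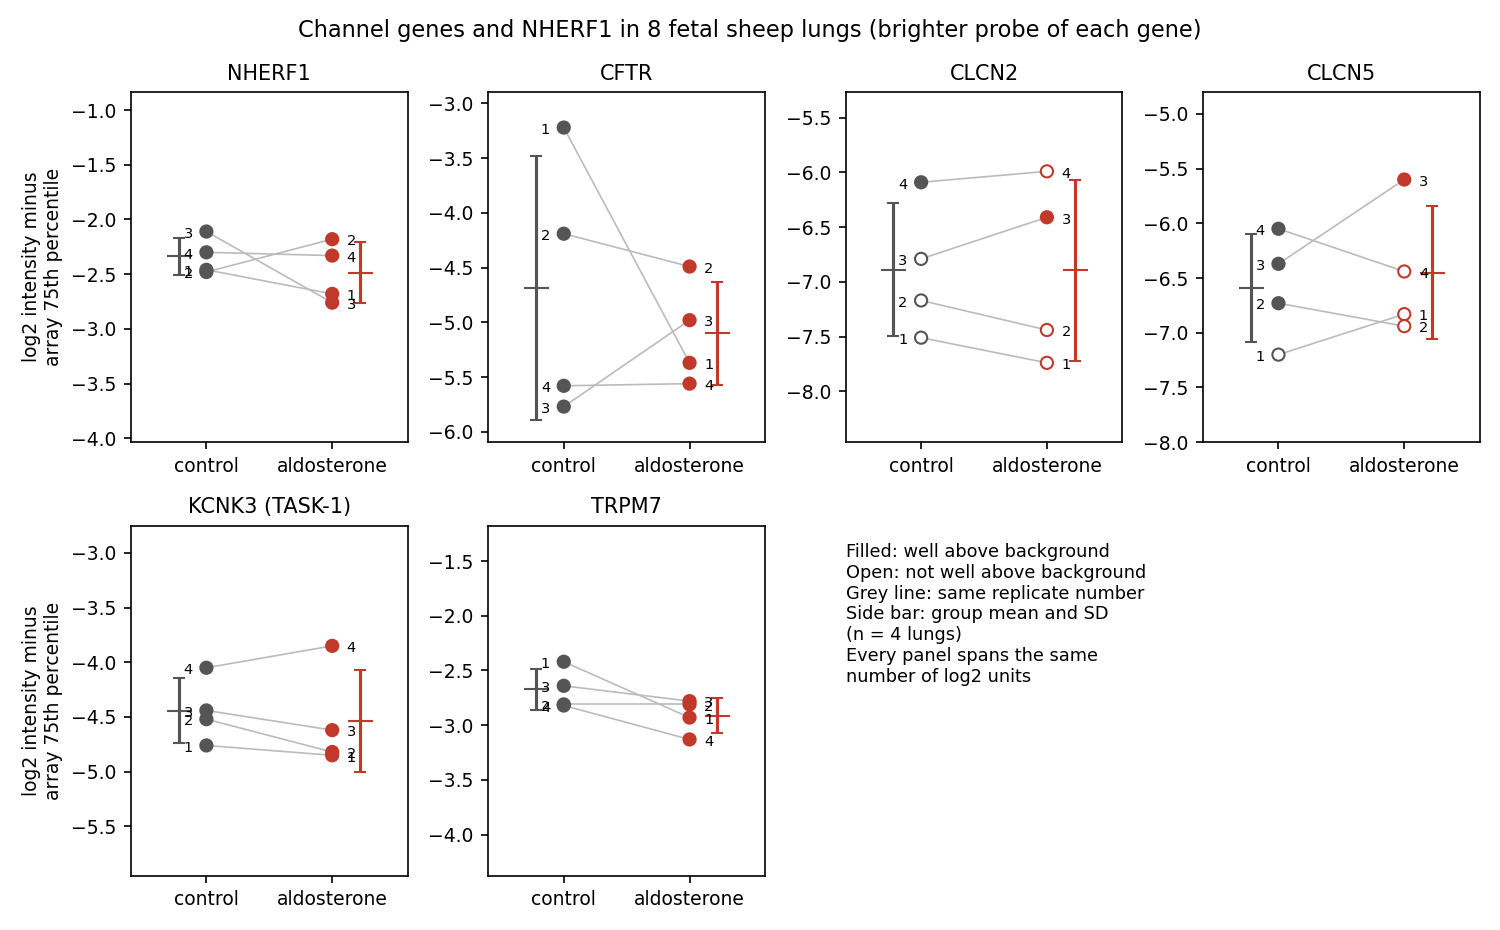
Level of each gene on its brighter probe (log2 intensity less the array's 75th percentile, vertical axis) in the control and aldosterone lungs, with twin numbers beside the points, lines joining lungs of the same number, and the mean and SD of each group of 4 at the side. The groups overlap in every panel, the spread is narrow for NHERF1 and TRPM7 and wide for CFTR, and CLCN2 and CLCN5 have open points where the probe was not well above background.

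NHERF1 was well above background in all 8 lungs on both probes. On its brighter probe the control lungs of replicates 1 to 4 stood at -2.46, -2.48, -2.11 and -2.30, and the aldosterone lungs at -2.68, -2.18, -2.76 and -2.33. The aldosterone lungs of replicates 1 and 3 lay below every control, that of replicate 2 lay near the top of the controls, and the groups overlapped. The log2 difference was -0.15 ± 0.17 (SE, n = 4 per group; adjusted p = 1 in limma), and the exact two-sided permutation test gave p = 0.4, where 0.0286 is the smallest p that 4 lungs against 4 allow. That test took all splits of the 8 lungs and ignored the twin sets. The 95% interval of the difference ran from -0.54 to 0.24, or from 0.687-fold to 1.18-fold.

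The other NHERF1 probe, which differs from the first by a shift of 1 base, gave -2.60, -2.64, -2.62 and -2.81 in the controls and -2.90, -2.45, -2.90 and -2.42 after aldosterone. Again aldosterone replicates 1 and 3 lay lowest, but replicates 2 and 4 were now the highest of all lungs, and the difference was 0.00 ± 0.16. The SD of the gap between the probes over the 8 arrays was 0.17, about the size of the difference itself. Within the first row of the slide, which held twins 1 and 2, the brighter probe's difference was 0.04. Within the second row, with twins 3 and 4, it was -0.34. The other probe did not repeat this contrast, with -0.06 in the first row and 0.06 in the second. Both lungs of a twin set lay in the same row of the slide.

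CFTR, the cAMP-regulated chloride channel through which fetal lung epithelium can secrete chloride, varied the most of the 5 genes. On its brighter probe the control lungs stood at -3.22, -4.19, -5.77 and -5.58 and the aldosterone lungs at -5.37, -4.49, -4.98 and -5.56. The control of replicate 1 was the highest of all 8 lungs, the controls of replicates 3 and 4 were the lowest, and the aldosterone lungs lay between them. The difference was -0.41 ± 0.54 (SE, n = 4 per group; adjusted p = 1 in limma), with a 95% interval from -1.64 to 0.82. Without the control lung of replicate 1 it was 0.0813.

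At its other site CFTR gave -4.83, -5.72, -5.87 and -5.43 in the controls and -5.57, -4.77, -5.14 and -5.86 after aldosterone, with the last of these not well above background. The control of replicate 1 and the aldosterone lung of replicate 2 were the highest here, and the difference was 0.13 ± 0.29, of opposite sign to the brighter probe. By twin set the brighter probe gave -2.15, -0.30, 0.79 and 0.02 and the other -0.74, 0.95, 0.73 and -0.43. Only sets 1 and 3 had the same sign on both probes, and those differed from each other in direction. The within-group SD of the brighter probe, 0.92, was higher than that of 96.3% of all kept probes.

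Markers of the epithelium that carries CFTR and NHERF1 were measured in the same lungs. Of the 11 genes of the lung epithelium list 6 were kept, 2 higher and 4 lower after aldosterone, with SFTPC, the type II cell surfactant protein, at 0.03 ± 0.19 and SCGB3A2, a secretoglobin of airway club cells, at -1.14 ± 0.66; 0 passed in limma. Their summed level ran from 8.94 to 9.42 in the controls and from 8.58 to 9.37 after aldosterone, so the groups overlapped. A summed level is the log2 of the sum of linear levels, so it follows the brightest genes of a list. The part of epithelial content in the values of CFTR and NHERF1 was not tested.

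CLCN2, a chloride channel opened by hyperpolarisation and acid and found on the apical membrane of fetal airway epithelium, gave almost no signal. Its brighter probe was well above background in 1 control and 1 aldosterone lung, and its other probe in 0 of 8. The intensity of the brighter probe ran from 9.14 to 18.5 in the controls and from 7.97 to 19.0 after aldosterone on the linear scale of the scanner. No difference is given for CLCN2, since most of its values are not well above background.

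CLCN5, the endosomal chloride-proton exchanger best known from the kidney proximal tubule, was near the same limit. Its brighter probe was well above background in 3 control lungs and 1 aldosterone lung, at -7.20, -6.73, -6.37 and -6.05 in the controls and -6.83, -6.94, -5.60 and -6.44 after aldosterone. The aldosterone lung of replicate 3 was the brightest of all and the control of replicate 1 the dimmest. The difference was 0.13 ± 0.34 (SE, n = 4 per group; adjusted p = 1 in limma), and leaving out aldosterone replicate 3 gave -0.148, leaving out control replicate 1 -0.0712. The other probe was well above background on 3 arrays and was not kept.

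KCNK3 encodes TASK-1, an acid-sensitive tandem-pore potassium channel that carries a leak current and helps to set the resting voltage of pulmonary artery smooth muscle. Its brighter probe gave -4.76, -4.52, -4.44 and -4.05 in the controls and -4.85, -4.82, -4.62 and -3.85 after aldosterone. Both lungs of twin set 4 were the highest of their groups and both lungs of set 1 the lowest. On the other probe set 4 was again the highest in both groups. There aldosterone replicate 2, at -6.03, lay below aldosterone replicate 1, at -5.38. The difference was -0.09 ± 0.25 (SE, n = 4 per group; adjusted p = 1 in limma), with a 95% interval from -0.66 to 0.48, and the other probe gave -0.04 ± 0.35. With the twin number as a block the SE fell to 0.13 on the brighter probe and to 0.24 on the other. The difference on the brighter probe still did not pass (adjusted p = 0.913 in limma).

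Markers of muscle and nerve, the cells in which potassium channels are best known, were few on the array. Of 8 smooth muscle genes 2 were kept, CNN1 at -0.10 ± 0.19 and MYLK at 0.11 ± 0.31, and their summed level ran from 4.15 to 5.01 in the controls and from 4.33 to 5.02 after aldosterone. Of 19 genes of striated and cardiac muscle 2 were kept, with sums from -3.97 to -2.66 and from -3.47 to -2.78. Of 10 genes of nerve and neuroendocrine cells 2 were kept, with sums from -4.15 to -3.28 and from -4.12 to -3.02. In each of these lists the groups overlapped, and the part of muscle or nerve content in KCNK3 was not tested.

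TRPM7 is a cation channel permeable to magnesium and calcium whose protein ends in a kinase domain, and it supplies growing cells with magnesium. It had the smallest unadjusted p of the 5 genes. Its brighter probe gave -2.42, -2.81, -2.64 and -2.82 in the controls and -2.93, -2.81, -2.78 and -3.13 after aldosterone. The control of replicate 1 was the highest lung and the aldosterone lung of replicate 4 the lowest, and the aldosterone lungs of replicates 2 and 3 lay among the controls. The difference was -0.24 ± 0.15 (SE, n = 4 per group; unadjusted p = 0.142 and adjusted p = 1 in limma), and the exact permutation test gave p = 0.171. The 95% interval ran from -0.58 to 0.10, or from 0.671-fold to 1.07-fold.

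The second TRPM7 probe gave -3.12, -3.49, -3.42 and -3.65 in the controls and -3.65, -3.54, -3.61 and -3.80 after aldosterone. Its difference was -0.23 ± 0.15 and it was lower in the aldosterone lung of 4 of 4 twin sets, by 0.54, 0.04, 0.20 and 0.14 on the log2 scale, against 3 of 4 sets on the brighter probe, where set 2 gave 0.01. The difference was -0.25 within the first slide row and -0.23 within the second on the brighter probe. Neither probe passed, and the exact permutation test of the second, which ignores the twin sets, gave p = 0.114.

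**Figure D2:**
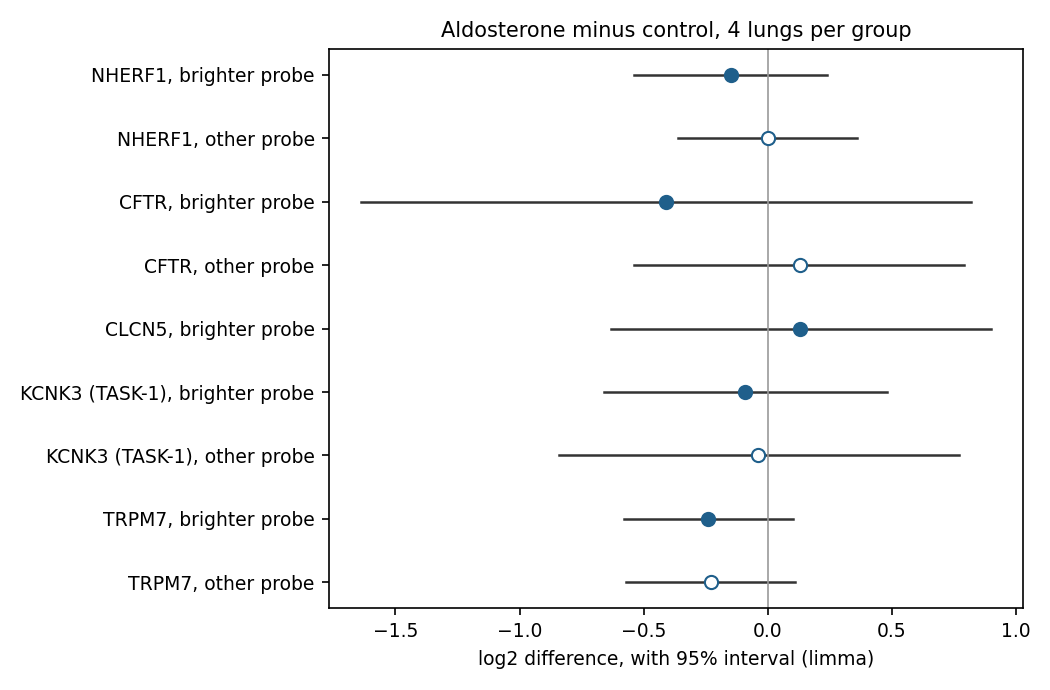
Log2 difference between aldosterone and control lungs (horizontal axis) for the 9 kept probes of the 5 tested genes, with the 95% interval from limma; filled points are the brighter probe of a gene and open points the other. Every interval crosses 0, from the narrow ones of TRPM7 (-0.58 to 0.10) and NHERF1 to the widest of CFTR (-1.64 to 0.82).

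How closely both probes of a gene followed the same lungs differed between the genes. The SD of the gap between the probes over the 8 arrays was 0.07 for TRPM7, 0.17 for NHERF1 and 0.28 for KCNK3. It was 0.46 for CLCN5, 0.53 for CLCN2 and 0.68 for CFTR, whose probes read separate sites. Over the 203 pairs of kept probes on the array that share at least 50 bases the median was 0.10. Of those 203 pairs 37, or 18.2%, had differences of opposite sign between the groups. Of the genes with such a pair, TRPM7 lay below that median and NHERF1 and KCNK3 above it; CFTR, CLCN2 and CLCN5 have no pair of this kind.

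**Figure D3:**
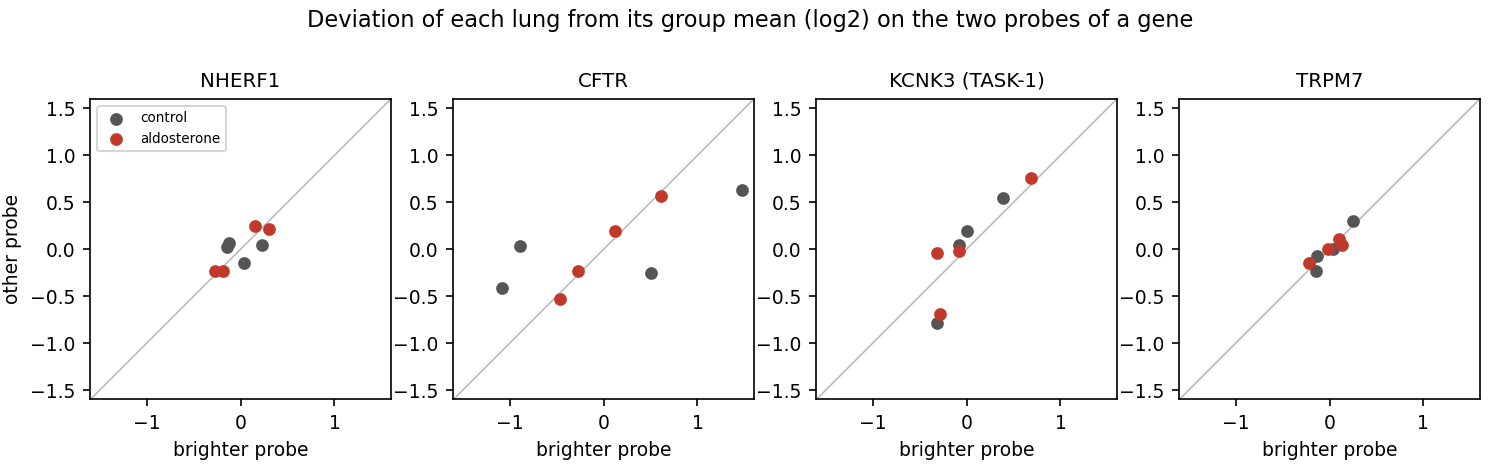
Deviation of each lung from its group mean (log2) on the brighter probe (horizontal) and the other probe (vertical) of the 4 genes with both probes kept; grey points are control and red points aldosterone lungs, and the line marks equal values. Points of TRPM7 lie close to the line, while the controls of CFTR scatter away from it.

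The lungs of twin sets 1 and 2 and those of sets 3 and 4, which lay in different rows of the slide, were compared on the same probes. All fits between the rows counted each lung as independent, although each row held only 2 twin sets. Their SE and p-values therefore do not measure the spread between twin sets and may be too small. The second row less the first gave 0.50 ± 0.19 for the brighter KCNK3 probe (SE; unadjusted p = 0.0324 and adjusted p = 0.193 in limma) and 0.74 ± 0.26 for the other. CFTR gave -1.16 ± 0.40 on its brighter probe (unadjusted p = 0.0195 and adjusted p = 0.167 in limma), but -0.35 ± 0.28 at its other site (unadjusted p = 0.247 in limma). CLCN5 was well above background in 1 lung of the first row and 3 lungs of the second, so its value of 0.81 compares the rows largely against signal not above background, and no test of it is given. NHERF1 gave 0.07 ± 0.17 and TRPM7 -0.10 ± 0.14 between the rows. No member probe passed the adjusted threshold, where limma called 16 of the 12170 kept probes (0.131%) between the rows and 2756 (22.6%) had an unadjusted p under 0.05.

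The same row differences were taken after normexp background correction and quantile normalization, a comparison added after seeing the data. The correction added an offset of 50, which makes log2 differences of dim probes smaller. The brighter probes of KCNK3 and CFTR had intensities from 52.1 to 83.2 and from 25.4 to 178. After this processing that of KCNK3 gave 0.22 (unadjusted p = 0.0723 in limma), no longer under 0.05, and that of CFTR -0.45 (unadjusted p = 0.0215 in limma). With quantile normalization alone they gave 0.50 and -1.23. Row and twin set cannot be told apart, since each set lay wholly in 1 row, and each row held 2 lungs of each group.

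**Figure D4:**
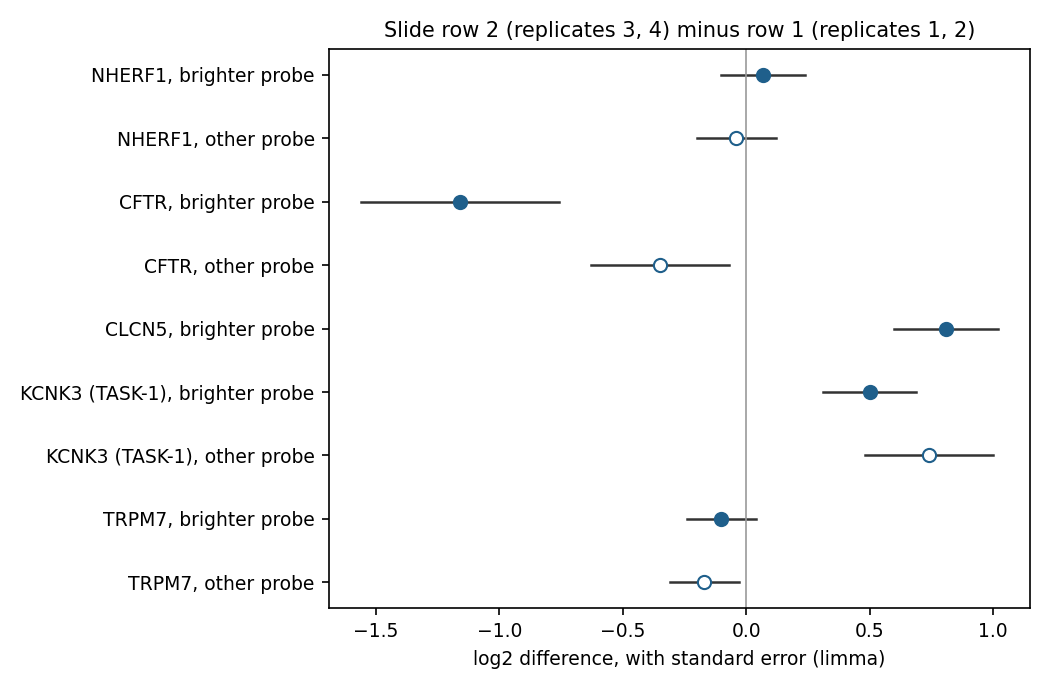
Log2 difference between the arrays of the second slide row (twin sets 3 and 4) and those of the first (sets 1 and 2) for the 9 kept probes, with the standard error from limma (horizontal axis, log2); filled points are the brighter probe of a gene and open points the other. CFTR lies to the left and KCNK3 to the right of 0, as does CLCN5, which was well above background in 1 of 4 lungs of the first row, while NHERF1 and TRPM7 lie near it. The standard error counts each lung as independent and does not measure the spread between twin sets.

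Other genes of lung liquid transport, taken from a list that excludes the members, were read in the same lungs; those named from it were chosen after their values were seen. Of its 35 genes 17 were on the array under those names and 14 were kept; 8 were higher and 6 lower after aldosterone, with differences from -0.22 to 0.55 and a median of 0.07. In limma 0 passed and 1 had an unadjusted p under 0.05, where 1.87% of all kept probes did. That gene was AQP1, the water channel of lung endothelium, at 0.55 ± 0.17 (unadjusted p = 0.0103 in limma). ADRB1, a beta-adrenergic receptor that raises cAMP, gave -0.22 ± 0.30, PRKACA, the catalytic subunit of the kinase that opens CFTR, 0.06 ± 0.15, and its regulatory subunit PRKAR1A 0.19 ± 0.16. The receptor for aldosterone, NR3C2, was well above background in all 8 lungs and gave -0.19 ± 0.23. From the list of 28 calcium handling genes only CALM2, a calmodulin gene, was kept, at -0.17 ± 0.16.

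Across the series between 76.49% and 85.41% of spots per array were well above background, the 75th percentile of log2 intensity ranged from 10.23 to 10.73, and the arrays correlated at 0.966 to 0.989 over probes. Precision is limited by having 8 arrays. SFTPC, SFTPB, SFTPA1 and SFTPD, the surfactant protein genes that define lung epithelium, were well above background in all 8 lungs. Of 3 red blood cell genes 3 had a lower mean after aldosterone (-0.76 to -0.40) and of 4 kept macrophage genes 3 had a higher one, with 0 past an unadjusted p of 0.05 in limma. With the twin block AHSP of the red cells (unadjusted p = 0.0481 in limma) and ITGAM of the macrophages (unadjusted p = 0.0223 in limma, lower after aldosterone) were under 0.05. Of all kept probes 4.43% were under 0.05 with that block. ITGAM was well above background in 4 of 8 lungs. The summed level of each list overlapped between the groups. Those sums cannot show a change in AHSP or ITGAM, since brighter genes make up most of them. In the controls AHSP stood at -2.74 against 5.87 for HBB, and ITGAM at -5.92 against -1.77 for LYZ. Blood content and its part in the channel values was not tested.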

How the data were processed

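Spot intensity on a linear scale is what the authors deposited from the scanner, made with Agilent Feature Extraction 10.1.1.1, per the file headers and the submitters' processing notes, with background subtraction and detrending within each array and no normalization between arrays. A series table that the authors deposited gives 12762 spots as log2 values, which differ from the log2 intensity by 1 constant for each array; it served as an alternative.

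From 15208 non-control spots, processed signals were put on the log2 scale and each array's 75th percentile subtracted, 74 values with outlier flags were left out, and spots of a probe were averaged. A probe was kept if it stood well above background in 4 or more of 8 lungs (12170 of 15008). A gene was given by its brighter kept probe, the other named beside it. Every other member was described; 1 gene that met the rule is not reported here. Names came from the files and a RefSeq table of ARS-UI_Ramb_v3.0, used for names alone.

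Groups were compared with limma 3.58.1 (R 4.3.3, two-sided), and p was adjusted over every kept probe by Benjamini-Hochberg. The procedure was tested on simulated data with independent lungs and changes far larger than the differences of the members. That test does not tell how often differences of the sizes seen here would be found. Single values were tested by exact permutation over the 70 splits of the lungs, without regard to twin set. The group alone was modelled, with the replicate number as a block as the alternative. The SE, intervals and p-values of the groups therefore ignore the pairing unless the block is named. Over all kept probes the median SE was 0.201 without the block and 0.144 with it. With the block the SE of the brighter probe was 0.45 for CFTR, 0.21 for CLCN5, 0.17 for NHERF1 and 0.13 for TRPM7. After removal of group means same-numbered lungs correlated at 0.446, 0.275, 0.28 and 0.538 over 12148 probes, against -0.449 to 0.203 for others. All same-numbered pairs met the criterion of 0.1 for treating numbers as twin pairs. Control 2 with aldosterone 1 (0.203) and control 4 with aldosterone 3 (0.11) met it as well. Same-numbered lungs also lay side by side on the slide, so the criterion cannot tell twin set from slide position. Twin set in the text means lungs of the same number. Slide row comes from the array position in the file labels. Members and lists were chosen with earlier results of these data known.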

Additional observations from a re-analysis of the deposited data

How the results depend on the processing

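With each of 18 alternatives limma called 0 of all kept probes and 0 of the 5 channel genes at an adjusted p of 0.05. Of 89 values of single genes under an alternative, 82 kept their direction and 7 reversed. NHERF1 was below 0 in all 18, from -0.253 to -0.0586, both ends from leaving out 1 lung, and TRPM7 in all 18, from -0.298 to -0.155. KCNK3 reversed to 0.00409 after normexp, with its offset of 50, and quantile normalization. With lungs left out in turn KCNK3 ran from -0.318 to 0.0402. It reversed without control replicate 4 and without aldosterone replicates 1 and 2. With lungs left out CFTR ran from -0.769 to 0.0813 and CLCN5 from -0.148 to 0.314; with array weights CLCN5 was 0.523. On its brighter probe NHERF1 gave -0.15 with the slide row as a block, 0.0413 within row 1 and -0.341 within row 2. The other probe gave -0.06 within row 1 and 0.06 within row 2. The cause was not tested. With the replicate block, which pairs lungs of the same number, NHERF1 stayed at -0.15 and no call changed. CLCN5 has no value where a probe had to be well above background on all 8 arrays.

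Over all kept probes the count at an unadjusted p under 0.05 was 228, or 68% higher after aldosterone; it was 539 with the replicate block, 343 with the slide row as a block, 1282 with array weights and 143 to 422 with 1 lung left out. The share of higher probes was 52.5% with median centring and 43.3% in the authors' deposited table. CLCN2 and CLCN5 lay near background, which limits what their values can show.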
